A study of Homo sapiens with 8 samples.

Results

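The ZNF genes encode a large group of human zinc finger proteins, and 116 of them had enough ribosome footprints in untreated HEK293T cells to follow their translation one by one. A member was a gene whose symbol is ZNF followed by a number, with at least 100 footprints on its coding sequence (CDS) when both control ribo-seq libraries were summed. This left 116 of 503 such genes, and 8101 of 19964 coding genes passed the same minimum. Of the ZNF genes that were left out, 298 had between 1 read and the minimum and 89 had none. The members were chosen by their control footprints, and the class was picked out because its translation efficiency had been seen to rise in these data, so its changes in arsenite are given here as a description and not as a test.

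HEK293T is an established human embryonic kidney cell line. Cells were given 40 µM sodium arsenite for 30 min or left as vehicle controls, and each condition was profiled by ribo-seq, which sequences the fragments that ribosomes protect, and by mRNA-seq. There were 2 replicates of each of the 4 groups, 8 libraries in all. Footprints on the CDS of the transcripts used here numbered between 1016863 and 7197534 per library, and mRNA-seq reads between 3993293 and 21724945. Arsenite ribo-seq libraries were the shallower ones in both replicates. The members held 0.438% of CDS footprints in control replicate 1 and 0.501% in arsenite replicate 1, and 0.550% and 0.664% in replicate 2. The 7 HEK293T markers (KRT8, KRT18, VIM, NEFL, NEFM, INA and CDH2) lay between 9.44 and 241 CPM (counts scaled to a common library total) in control mRNA-seq replicate 1 and between 5.63 and 295 CPM in replicate 2. Of 5 markers of other cell types, PTPRC, ALB, PECAM1 and GFAP were below 1 CPM in both, and COL1A1 was at 9.89 and 8.46 CPM, above KRT8. As a check of the labels, TE of ATF4, the stress transcription factor whose mRNA is translated when initiation is limited, was higher by 1.66 and 2.84 (log2) in arsenite in replicates 1 and 2.

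Most ZNF proteins carry arrays of C2H2 zinc fingers, small folds held by a zinc ion that read DNA bases. Many also have a KRAB domain, through which they recruit TRIM28 and SETDB1 to silence transposable elements and other targets, while a smaller set acts on RNA, ribosomes or the mitotic spindle. Arsenite is an oxidative poison that leads to phosphorylation of eIF2, which lowers initiation on most mRNAs. Some mRNAs with short open reading frames in the 5′ leader keep being translated or gain ribosomes under that condition.

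Translation efficiency (TE) is the number of CDS footprints relative to mRNA-seq reads, and its change is the log2 ratio of arsenite over control. Because all libraries were scaled to their own totals, a change is relative to the bulk of mRNAs. A change shared by all mRNAs does not appear in it. The general drop in translation that the paper reports for arsenite is therefore not seen in these values, and a rise is not an absolute gain of ribosomes. Over the 116 genes the median log2 change of TE was 0.12, with quartiles at -0.19 and 0.43, and 68 genes lay above 0. With mRNA-seq reads of the CDS only, the median was 0.08. Over all 10273 genes tested the median was -0.01, and 48.6% lay above 0. Both replicates gave a median on the same side, 0.12 in replicate 1 and 0.09 in replicate 2. TE was higher in both replicates for 52 members and lower in both for 28, and the replicates disagreed in sign for the remaining 36. Of the 7985 other genes that passed the same read minimum, 29% were higher in both and 34.9% lower in both. The spread among members was wide beside the shift of the median: the SD over genes was 0.47, 26 members exceeded a log2 change of 0.5 and 13 were below -0.5.

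**Figure D1:**
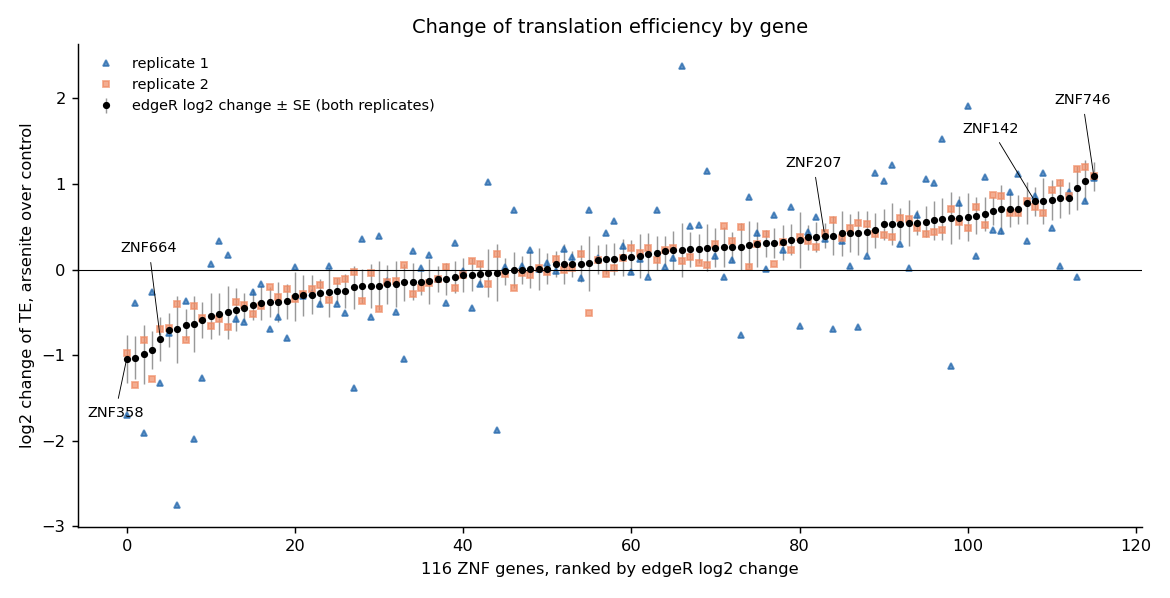
Log2 change of TE in arsenite over control (vertical axis) for the 116 ZNF genes, ranked along the horizontal axis; black points are edgeR estimates with bars of 1 SE, triangles replicate 1 and squares replicate 2. The estimates run from -1.04 at ZNF358 to 1.09 at ZNF746, and replicate 1, the shallower one, scatters more widely.

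The shift was not shared evenly over the range of control reads. In the 38 members with at least 300 control reads, the most precisely measured ones, the median log2 change of TE was -0.01 and 18 lay above 0. It was 0.08 in the 35 genes with 100 to 149 reads, 0.23 in 30 genes with 150 to 249 reads and 0.01 in 29 genes with 250 to 499 reads. The medians of other genes in these 3 ranges were 0.03, -0.02 and -0.02. In the 15 members with 500 to 999 reads it was 0.06 against -0.04 in other genes, and in the 7 with 1000 reads or more 0.06 against -0.09. The ZNF median was thus above that of other genes in each of the 5 ranges, by an amount that varied between them. The 69 ZNF genes just under the minimum, with 50 to 99 control reads, had a median of 0.30 with 55 genes above 0, while 1215 other genes with as few reads had a median of 0.01 with 50.5% above 0. Control reads enter both the choice of range and the ratio, so that a range of low control reads favours higher values in either class. Choosing by mRNA-seq instead, 59 ZNF genes had at least 500 control mRNA-seq reads on the CDS, and their median log2 change of TE was 0.12 with 34 genes above 0. The median was 0.12 in 39 of them with under 1000 such reads, against -0.03 in other genes. In 14 with 1000 to under 2000 it was -0.03 in both classes. In 6 with 2000 or more it was 0.15 against -0.07.

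**Figure D2:**
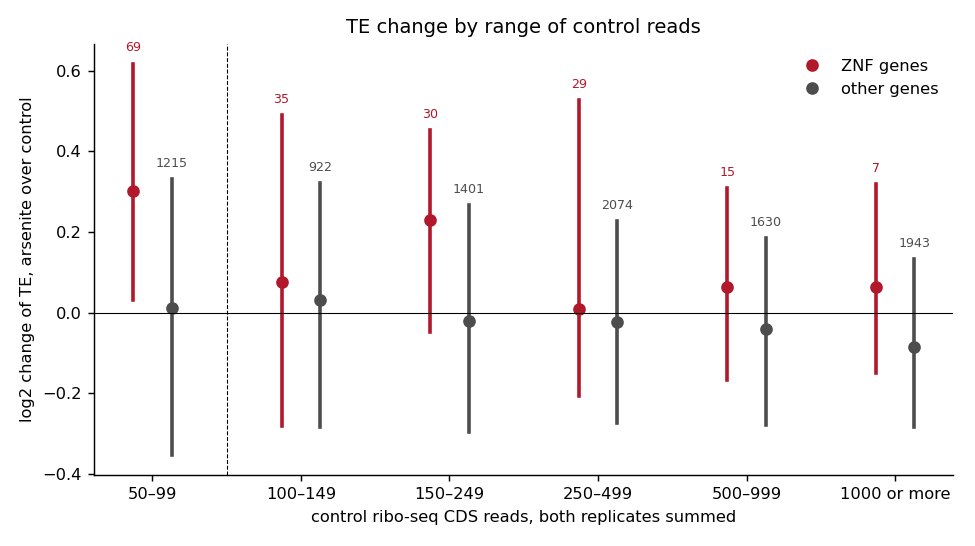
Log2 change of TE (vertical axis) by range of control CDS footprints (horizontal axis), with medians as points, quartiles as bars and gene numbers printed above, for ZNF genes in red and other genes in grey. Left of the dashed line are genes under the minimum of 100 reads, where the ZNF median is 0.30 and that of other genes 0.01.

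ZNF746, also called PARIS, a KRAB protein degraded through Parkin, had the highest TE change of the class. Its CDS footprints stood at 16.0 CPM in control and 38.0 CPM in arsenite in replicate 1, and at 34.5 and 81.2 CPM in replicate 2. Its mRNA-seq values were 29.7 and 33.5 CPM in replicate 1 and 32.9 and 36.2 CPM in replicate 2. Footprints thus more than kept pace with the mRNA in both replicates, although the control level itself differed between replicates. The log2 change of TE was 1.09 ± 0.17 (SE, n = 2), with 1.06 and 1.10 in the replicates. Here and below the SE is that of the edgeR fit, which draws on the variance of all genes. It does not measure the spread of the 2 replicate values.

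ZNF142 was the other member that passed an adjusted p of 0.05 for TE in edgeR. Its footprints went from 26.0 to 41.6 CPM in replicate 1 and from 55.3 to 96.7 CPM in replicate 2, with mRNA at 49.2, 43.3, 40.5 and 42.6 CPM in the same order. The log2 change of TE was 0.79 ± 0.17 (SE, n = 2). Thus 2 of 116 members were called higher and none lower, beside 1.03% of all tested genes called higher, 1.12% lower and 2.15% in either direction. From these calls nothing is read, since the rule used this contrast. DESeq2 called 0 members and 1.14% of all genes, with 14 members, or 12.1%, and 9.01% of all genes at an unadjusted p under 0.05. Without the replicate block, edgeR called 0 of 10273 genes, members included. In that fit 0 members and 1.43% of all genes had an unadjusted p under 0.05.

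The other genes at the top of the ranking with the same sign in both replicates were ZNF35, ZNF444, ZNF212, ZNF473, ZNF791, ZNF620, ZNF629 and ZNF526. Their log2 changes of TE ran from 1.04 for ZNF35 down to 0.70 for ZNF526, with SE between 0.17 and 0.27. ZNF473, a part of the machinery that cuts the 3′ ends of histone mRNAs, had 14.7 and 23.3 CPM of footprints in control and arsenite replicate 1, and 11.8 and 23.3 CPM in replicate 2. Both arsenite libraries were above both control libraries, at few reads, since ZNF473 had 101 control reads. ZNF212 changed by 0.05 in replicate 1 and 1.01 in replicate 2, so its place in the ranking came from the deeper replicate. ZNF646 had a log2 change of 0.96 over both replicates but -0.08 and 1.17 in the single ones.

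At the other end stood ZNF358, ZNF639, ZNF543, ZNF770 and ZNF664, each lower in both replicates. ZNF358 went from 10.7 to 2.45 CPM of footprints in replicate 1, where it had 2 arsenite reads, and from 24 to 12 CPM in replicate 2. Its mRNA was 57.3 and 51.9 CPM in replicate 1 and 35 CPM in both conditions of replicate 2. The log2 change of TE was -1.04 ± 0.28 (SE, n = 2), the lowest of the class. ZNF770 went from 66.8 to 47.8 CPM of footprints in replicate 1 and from 90.8 to 40.9 CPM in replicate 2. Its log2 change of TE was -0.94 ± 0.23 (SE, n = 2), and it was far smaller in replicate 1, -0.26, than in replicate 2, -1.28. That SE does not measure the gap between the replicates. The class therefore held genes that lost nearly as much TE as its leading genes gained.

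**Figure D3:**
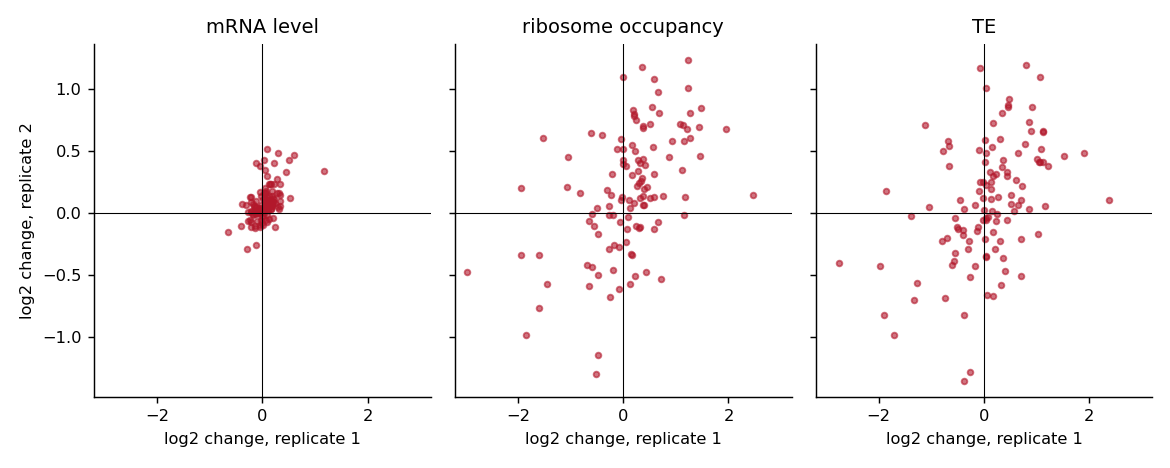
Log2 changes in replicate 1 (horizontal axes) and replicate 2 (vertical axes) of mRNA level, ribosome occupancy and TE for the 116 ZNF genes. Each point is a gene, and the vertical axis spans a narrower range of values than the horizontal one. TE was higher in both replicates for 52 genes and lower in both for 28, and the mRNA changes are the narrowest of the 3 measures, from -0.66 to 1.18 in replicate 1 and from -0.29 to 0.52 in replicate 2.

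Across the 116 genes, the TE changes of the 2 replicates had a Pearson r of 0.44 (Spearman 0.46), against 0.38 over the 7985 other genes. Genes are not independent replicates, and genes with few reads scatter more. Among the 29 members with the highest change in replicate 1, 26 were above 0 in replicate 2, with a median of 0.41. Among the 29 with the lowest change in replicate 1, 9 were above 0 in replicate 2, with a median of -0.18.

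Of the 5 members with the most control footprints, ZNF207 alone combined a high level with a TE change above 0.3. ZNF207, or BuGZ, loads the checkpoint protein BUB3 onto kinetochores. Its footprints were 423 CPM in control and 551 CPM in arsenite in replicate 1, and 497 and 672 CPM in replicate 2, and its mRNA lay between 202 and 212 CPM in the 4 mRNA-seq libraries. The log2 change of TE was 0.39 ± 0.15 (SE, n = 2), with 0.36 and 0.43 in the replicates.

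ZNF503 and ZNF703, related corepressors of the NET family, were next in footprints. ZNF503 had a log2 change of TE of 0.06 ± 0.15 and ZNF703 of -0.38 ± 0.18 (SE, n = 2 each). ZNF703 had 158 and 107 CPM of footprints in control and arsenite replicate 1, and 530 and 492 CPM in replicate 2, so that it was lower in both while its level differed between replicates. ZNF24 and ZNF326, the latter a subunit of the DBIRD complex that links transcription to splicing, had log2 changes of -0.05 and -0.25.

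A few members work on ribosomes or RNA. ZNF598, the ubiquitin ligase that senses collided ribosomes, had 72.8 and 68.6 CPM of footprints in replicate 1 and 107 and 88.2 CPM in replicate 2, and its log2 change of TE was -0.14 ± 0.16 (SE, n = 2). ZNF622 and ZNF593, which act in the making of the large ribosomal subunit, had log2 changes of TE of 0.26 ± 0.18 and -0.06 ± 0.20. None of these 3 passed the test. ZNF638, an RNA-binding nuclear protein, rose in footprints from 281 to 410 CPM and from 139 to 251 CPM with mRNA near level, and its occupancy passed the test.

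Ribosome occupancy, the change of CDS footprints without division by mRNA, is part of the TE ratio by which the class was picked. It is therefore a description as well, and nothing is read from its calls. Its median log2 change was 0.23 over the 116 members, with 76 above 0, and 0.20 and 0.17 in the replicates, against -0.02 over the 7985 others. In edgeR 4 members were called higher (ZNF746, ZNF444, ZNF574 and ZNF638) and 1 lower (ZNF770), beside 1.46% of all 10291 genes higher, 1.35% lower and 2.81% in either direction. ZNF444 had 6.68 and 15.9 CPM in replicate 1 and 31.0 and 62.5 CPM in replicate 2, a log2 occupancy change of 1.06 ± 0.28 (SE, n = 2). ZNF574 had 25.4 and 61.2 CPM and then 59.8 and 105 CPM, a log2 change of 0.97 ± 0.23. In both genes arsenite exceeded control within each replicate, while control replicate 2 exceeded control replicate 1 more than 2 times. The number called moved with the scaling, over all genes as well as over the members. Upper-quartile factors gave 14 members and 4.64% of all genes, and RLE factors gave 16 members and 5.40%. DESeq2, a different test, called 0 members and 0.525% of all genes, with 13 members, or 11.2%, and 5.97% of all genes at an unadjusted p under 0.05. Without the replicate block edgeR called no gene.

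The mRNA level of the class was also slightly higher in arsenite, and it is part of the TE ratio. The median log2 mRNA change was 0.07, with 81 members above 0 and 63 higher in both replicates, against 0.00 over the others. In edgeR 8 members were called higher and 1 lower, beside 3.75% of all 12600 genes higher, 2.0% lower and 5.75% in either direction. With mRNA-seq reads of the CDS only, 1 member and 2.04% of all genes were called, and with members chosen by mRNA-seq reads the median was 0.04. No member passed a log2 mRNA change of 0.5 over both replicates. ZNF579 and ZNF184 had the largest of the called changes, 0.44 ± 0.12 and 0.44 ± 0.11 (SE, n = 2 each). ZNF579 had 1.18 in replicate 1, from 24 and 55 reads, and 0.34 in replicate 2, and ZNF184 had 0.51 and 0.43. ZNF574, ZNF12, ZNF282, ZNF398, ZNF280C and ZNF503 followed, between 0.37 and 0.18. ZNF618 was the one called lower, at 47.0 and 38.4 CPM in control and arsenite replicate 1 and 44.0 and 35.9 CPM in replicate 2, a log2 change of -0.29 ± 0.08. Of these 9 genes, 4 had a TE change below 0 (ZNF579, ZNF184, ZNF12 and ZNF280C), so that a called mRNA change came with a TE change of either sign. DESeq2 called 0 members and 0.667% of all genes for mRNA, with 2 members, or 1.72%, and 2.97% of all genes at an unadjusted p under 0.05. The fit without the replicate block called no gene.

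Baseline translation, the log2 ratio of control CDS footprints to control CDS mRNA-seq reads, had a median of -0.18 over the members and 0.10 over the others. In the 38 members with at least 300 reads the difference from others with as many reads was -0.01, and it was -0.41 for ZNF genes chosen by mRNA-seq reads, so its size follows the choice of genes. At equal control reads its direction varied as well: the members' median was -0.31 against -0.44 in other genes at 100 to 149 reads, -0.46 against -0.28 at 150 to 249, -0.03 in both at 250 to 499, 0.30 against 0.19 at 500 to 999, and 0.70 against 0.53 at 1000 reads or more. Members ranged from -2.20 for ZNF358 to 2.11 for ZNF460. ZNF460 had 54.1 and 97.7 CPM of footprints in control against 28.3 and 16.4 CPM of mRNA over the whole transcript. Its baseline values, which use mRNA-seq reads of the CDS with separate factors, were 1.16 and 3.07 in the replicates. ZNF557 (1.72) and ZNF579 (1.54) were next, and ZNF592 (-1.78) and ZNF710 (-1.42) stood near the low end. ZNF710 had -2.90 and 0.06 in the replicates, from 2 control reads in replicate 1. Baseline in one replicate bore little relation to the TE change in the other, which shares no library with it: Pearson r was -0.01 for baseline 1 with TE change 2 and 0.10 for baseline 2 with TE change 1, over 116 genes.

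The 5′ leaders held a larger share of the footprints in the class than in other genes. Members had fewer control CDS reads, with a median of 216 per gene against 431. The 2 classes were not matched for leader length or read number in these shares. Leader reads made up 1.50% (95% Wilson interval 1.26 to 1.78) of leader and CDS reads in control replicate 1 and 1.93% (1.80 to 2.06) in control replicate 2. In the other genes the shares were 0.334% and 0.705%. In arsenite the members' share was 1.58% (1.28 to 1.96) in replicate 1, which overlaps the control interval, and 2.80% (2.58 to 3.04) in replicate 2, which does not. The other genes went to 0.421% and 1.39%, a ratio of 1.26 and 1.97 over control, where the members' ratio was 1.06 and 1.45. The intervals cover counting error only. Shares of 3′ UTR reads were also higher in arsenite in both classes, going from 0.213% to 0.404% and from 0.259% to 0.878% of all reads in the members, and from 0.0905% to 0.179% and from 0.174% to 0.627% in the others. Whether the leader reads share a source with these 3′ UTR reads was not tested.

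**Figure D4:**
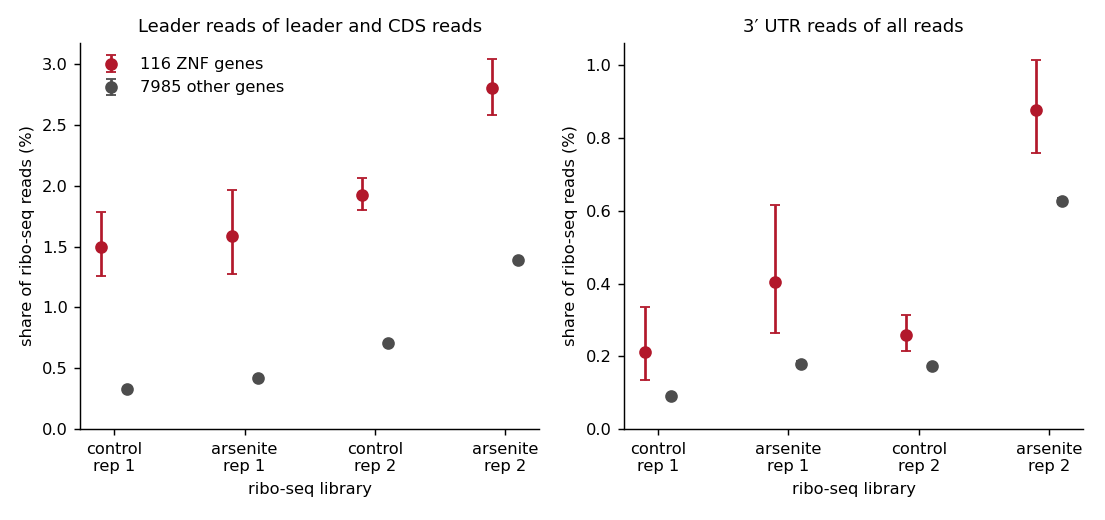
Share of ribo-seq reads (vertical axes, percent) in 5′ leaders and in 3′ UTRs for each ribo-seq library (horizontal axes), with 95% Wilson intervals, for the 116 ZNF genes in red and 7985 other genes in grey. The ZNF leader share is above that of other genes in each of the 4 libraries, from 1.50% to 2.80%.

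The leader reads were concentrated in a few genes. ZNF146 had 218 of them in control and ZNF664 had 102, and without both the members' control share was 0.946% and 1.28%. Taken gene by gene, the median leader share in control was 0.734% in the members and 0.233% in the others, and 33 members were over 2%, or 28.4%, against 15.8% of others. Another 30 members had 0 leader reads in control. The 4 members over 10% were ZNF146, ZNF664, ZNF322 and ZNF689.

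ZNF146, or OZF, a protein made almost wholly of zinc fingers, had a leader share of 33.2% in control and 44.7% in arsenite. These shares, and those of the next 3 genes, pool both replicates. In control, ZNF146 had 36 leader and 178 CDS reads in replicate 1, and 182 and 261 in replicate 2, so its share differed between replicates. Its CDS footprints were 119 and 84.5 CPM in control and arsenite replicate 1, and 39.1 and 27.5 CPM in replicate 2, a log2 change of TE of -0.41 ± 0.18 (SE, n = 2). ZNF664 had a leader share of 29.4% in control and 48.6% in arsenite, while its CDS footprints went from 31.4 to 9.80 CPM and from 29.7 to 17.3 CPM. Its log2 change of TE was -0.81 ± 0.26 (SE, n = 2). ZNF322, with 18.7% and 18.6%, changed by -0.06. Its leader and CDS reads were 11 and 47 in control and 2 and 27 in arsenite replicate 1. In replicate 2 they were 36 and 157, then 19 and 65, so the share fell in replicate 1 and rose in replicate 2. ZNF689, with 13.8% and 15.2%, had 0.40 ± 0.22, from -0.69 in replicate 1 and 0.58 in replicate 2. Its share also fell in replicate 1, from 6 leader and 20 CDS reads to 1 and 8, and rose in replicate 2. The shares of ZNF146 and ZNF664 were higher in arsenite in both replicates. Of the 4 members with the highest leader shares, 1 thus had a TE change above 0, while 94 of 161 other genes over 10% did, with a median of 0.12. Over the 116 members Spearman's rho between control leader share and TE change was -0.02. Control CDS footprints of the same libraries enter both values, and the class was picked by TE. Neither this rho nor the counts above 0 can therefore tell whether leader share and TE change are related.

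**Figure D5:**
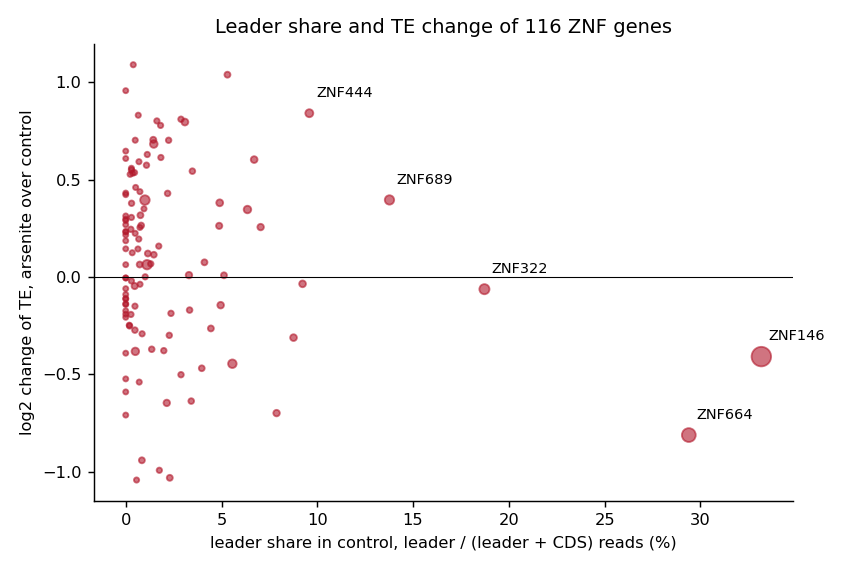
Leader share in control (horizontal axis, percent) and log2 change of TE (vertical axis) of the 116 ZNF genes, with point area growing with the number of control leader reads. ZNF146 and ZNF664, at 33.2% and 29.4%, lie below 0.

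Enough leader reads to test a shift between leader and CDS were present in 8 members. Their median log2 shift towards the leader was 0.68, below the median of 0.81 over all 647 genes tested, and 6 of 8 were above 0. ZNF664 had the largest, 1.46 ± 0.55 (SE, n = 2), with 13 and 17 leader reads in control and arsenite replicate 1 and 89 and 37 in replicate 2. ZNF207 and ZNF503 had 0 leader reads in both libraries of replicate 1, so their shifts of 0.63 and 0.79 came from replicate 2. No member was called by edgeR, beside 0.155% of all genes called in either direction, 0.0% higher and 0.155% lower. DESeq2 called no member either, beside 1.70% of all genes. Each tool had 1 member, or 12.5%, at an unadjusted p under 0.05, beside 29.5% of all genes in edgeR and 18.4% in DESeq2.

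ZNF genes often lie in runs along chromosomes, as copies of one another. In the RefSeq gene table (GRCh38.p14) 36 members stood in 13 runs, in which at most 4 other protein-coding genes separated neighbours. The longest run, ZNF786, ZNF398, ZNF282, ZNF212, ZNF777 and ZNF746, had 6 of 6 TE changes above 0, from 0.22 to 1.09 with a median of 0.49, and each gene was above 0 in both replicates. This run was singled out after its values were seen. Without it the median of the other 110 members was 0.07. The second run, ZNF628, ZNF579, ZNF865, ZNF581 and ZNF580, had 2 of 5 above 0. Reads that matched more than one gene had been discarded by the authors, so stretches shared by related copies do not count towards these values.

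Of 103 members with a RefSeq start window, 21.4% had an ATG on the sense strand in the first 50 transcribed bases, against 34% of 6228 other genes with a window. The median TE change was 0.33 in the 22 members with that triplet and 0.01 in the 81 without it. This split uses the TE changes by which the class was picked, and the difference was not tested. An ATG in the window was not told apart from the start of the CDS itself. The windows describe annotated starts, which can differ from those used in HEK293T cells.

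Other zinc finger and chromatin genes are set beside the class for scale. Of 20 ZBTB genes with the same read minimum, 18 were above 0 in TE, with a median log2 change of 0.40, and ZBTB1 was called higher at 1.06 ± 0.21 (SE, n = 2). The 8 ZSCAN and ZKSCAN genes had a median of 0.63 with 5 above 0, and ZKSCAN5 was called higher at 1.12 ± 0.23. In contrast, 26 ZC3H and ZCCHC genes, taken by symbol and many with fingers that bind RNA, had a median of -0.01 with 13 above 0. Medians were -0.04 in 6 ZFP genes and 0.13 in 15 PHF genes, many with fingers that read histone tails, with none called in either list. Of 28 KRAB corepressor and heterochromatin genes 17 were above 0, with a median of 0.09. The deacetylase HDAC2 was called lower in that list at -0.68 ± 0.14 (SE, n = 2), and TRIM28 and SETDB1, the partners of KRAB proteins, had log2 changes of 0.08 ± 0.14 and 0.14 ± 0.15. Of 14 HOX genes 12 were above 0 with HOXA10 called higher at 0.95 ± 0.17. Of 75 ribosomal protein genes 21 were above 0, with 2 called higher and 3 lower. In that list 23 mRNA levels were called lower and 0 higher, beside 2.0% and 3.75% of all genes. Occupancy was called lower in 10 and higher in 2, beside 1.35% and 1.46%. For TE, 1.03% of all genes tested were called higher and 1.12% lower, and nothing is read from the few TE calls in these lists. Whether any of these lists differs from the ZNF class was not tested.

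Just inside the read minimum stood ZNF473 and ZNF280D with 101 control reads each and ZNF696 with 104, with TE changes of 0.81, -0.50 and 0.35. Just outside were ZNF608 with 99 reads, ZNF16 with 98 and ZNF385A with 95, with TE changes of 1.32, -0.07 and -0.12. ZNF608 thus exceeded every member, and changed by 1.40 and 1.31 in the replicates.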

How the data were processed

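The deposited tables gave raw read counts per RefSeq transcript and region (leader, CDS, 3′ UTR) in 8 libraries. Per the paper's methods and the submitters' processing notes, adapters were removed with cutadapt and reads aligned with Bowtie 1.0.0 to RefSeq transcripts. Reads that matched more than one gene were dropped, and a read can count for several transcripts of a gene. Footprints were kept within the length range of single ribosomes. Replicate 2 was sequenced more deeply, and the replicates carried different adapters. For each gene the transcript with the most control CDS footprints was used. Changes were fitted with edgeR 4.0.16 (quasi-likelihood, TMM factors, genes averaging 10 counts or more per library), replicate being a block within each assay. The TE change is the treatment effect on footprints beyond that on mRNA-seq reads. The SE of a change was derived from the change and its edgeR F statistic. p-values were adjusted by Benjamini-Hochberg over all genes tested, with a threshold of 0.05. CPM and changes within a replicate used the same factors, the changes with a prior count of 0.5. DESeq2 1.42.0 and other settings were alternatives. Fits were also run on simulated counts with large known changes in better covered genes. Those counts had a fixed variance setting and no replicate effect. They do not cover members with few reads or a shift as small as the class median.

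Same-numbered libraries deviated together (correlation 0.770 for ribo-seq over 8488 genes and 0.855 for mRNA-seq over 11479), and the numbers come from the sample labels. With 2 replicates against 2, an exact test of 1 value cannot go below p = 0.333 two-sided. The members and lists were chosen with earlier results of these data known. Named genes were the 10 highest and 5 lowest TE changes of equal sign in both replicates, the 5 with the most control footprints or leader reads, those called, the 3 at each end of baseline translation, and the 3 on each side of the read minimum. ZNF646, the genes named for a role in ribosomes or RNA, and the members of neighbouring runs were named in addition, after their values were seen. No protein sequences were used here, and the only leader bases used were the first 50 after annotated starts.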

Additional observations from a re-analysis of the deposited data

How the results depend on the processing

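The class median of the TE change kept its sign in all alternatives except one: with at least 300 control reads it was -0.0127 (38 genes). It was 0.0753 with CDS reads of mRNA-seq only, 0.0989 without a filter and 0.19 with at least 50 control reads, and 0.0879 to 0.138 when 1 replicate was left out. The number of members called for TE, 2 in the reported fit, was 0 in DESeq2, beside 1.14% of all genes. It was also 0 without the replicate block and with 1 block shared by both assays, and these fits called no gene. It was 1 with CDS reads of mRNA-seq (0.78% of all genes), footprints of the whole transcript (1.73%) or upper-quartile factors (1.38%). Without a filter 7 members and 3.37% of all genes were called, against 2.15% in the reported fit. The reported fit called 1 of 38 genes with at least 300 control reads, 1 of 59 chosen by mRNA-seq and 4 of 185 with at least 50 control reads. For mRNA level, 9 members were called, 0 in DESeq2 (0.667% of all genes) and 0 without the replicate block (0%). With CDS reads only 1 was called (2.04%, against 5.75%), and 4 of 59 with members chosen by mRNA-seq. The mRNA median was 0.0882 with CDS reads, 0.0628 with upper-quartile factors and 0.0540 with at least 300 control reads. It was 0.0378 with members chosen by mRNA-seq, and 0.0625 to 0.0754 with 1 replicate left out. For occupancy, 5 members were called, 0 in DESeq2 (0.525% of all genes) and 0 without the replicate block (0%). The number was 14 with upper-quartile factors (4.64%) and 16 with RLE factors (5.40%) or without a filter (3.96%). It was 18 with a mean of at least 30 counts (6.74%, against 2.81%). The reported fit called 8 of 185 genes with at least 50 reads, 3 of 38 with at least 300 and 2 of 59 chosen by mRNA-seq. The occupancy median was 0.20 over whole transcripts, 0.27 and 0.17 with at least 50 and 300 reads, and 0.17 to 0.22 with 1 replicate left out. The median leader shift was 0.69 to 1.62 with 1 replicate left out, the higher value from 2 genes. The difference in baseline translation, -0.28, was -0.00745 with at least 300 reads, -0.41 with members chosen by mRNA-seq and -0.29 to -0.16 with 1 replicate left out. The mean control leader share, 1.71%, was 1.18% with at least 300 reads, 1.29% without ZNF146 and 1.50% to 1.93% with 1 replicate left out. The causes were not tested. With 1 replicate left out there are no residual degrees of freedom, so those values carry no calls, and without replicate 2 only 100 members passed the filter. Most members have few footprints in replicate 1, which limits single-gene values. The planned summary of protein features was not run.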
